A study of Mus musculus with 16 samples.

Results

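Genes of the heart muscle cells that line pulmonary veins were followed in mouse lung: Myh6, Myl4, Myl7, Mybpc3, Actc1, Tnni3, Tnnt2, Sln, Ryr2 and Nppa. These 10 genes were chosen by name, and every array probe annotated to one of them was taken. A probe was found for 9 of the 10, 11 probes in all, and 8 of the genes were above background and tested among 11962 genes or unnamed probes. Tnnt2, cardiac troponin T, had no probe and was not analysed here. Single-colour Illumina mouse BeadChips measured lung RNA from 16 mice, all female C57BL/6N and 17 weeks old, with 4 mice in each of 4 groups. Wild type and mutant mice were each either left untreated or challenged, and the mutant line is the Cox4-2 knockout, which targets Cox4i2, the lung form of a cytochrome c oxidase subunit. Challenged mice were sensitised by intraperitoneal injection of 10 µg ovalbumin (OVA) with 2 mg alum and later breathed an aerosol of 1% OVA in PBS 3 times for 30 min. Untreated mice are labelled as having had no treatment, although the sensitisation text stands on every sample, and no cell type to which the knockout is restricted is named. RNA came from part of a lung, so the amount of large vein in each piece was not controlled.

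In mice, heart muscle does not end at the left atrium. Sleeves of cardiomyocytes continue along the pulmonary veins into the lung, where they beat with the atrium, and they are the usual source of heart muscle transcripts in lung RNA. These cells carry the atrial form of the contractile machinery: alpha-myosin with atrial light chains in the thick filament, cardiac actin and troponin in the thin filament, a calcium store that opens through the ryanodine receptor and is refilled by a pump that sarcolipin restrains, and granules of atrial natriuretic peptide. The 10 genes mark heart muscle as such, so vein sleeves and a remnant of atrium left on a lung piece cannot be told apart from these values.

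The stretch around the annotated start of 5 of the genes is shown because these members carry the patterns described further on: Myh6, Myl4 and Myl7 varied together from lung to lung, Nppa followed them more loosely, and Actc1 least of the bright members. Each runs 5′ to 3′ from 250 bases before to 30 bases after an annotated start in RefSeq (GRCm38.p6), which held a window for 9 of the 10 genes and none for Sln. For Myh6 and Myl4 that start lies inside the annotated span of the gene, so the region before the outermost start was not searched. Capitals mark the motifs searched on both strands: the TATA box sequence TATAAA, the M-CAT box CATTCC of muscle genes, the motif AGATAA of factors such as Gata4, the motif AAGTG of homeodomain factors such as Nkx2-5, the MEF2 box and the CArG box.
Myh6, chr14:54966578-54966857, reverse strand: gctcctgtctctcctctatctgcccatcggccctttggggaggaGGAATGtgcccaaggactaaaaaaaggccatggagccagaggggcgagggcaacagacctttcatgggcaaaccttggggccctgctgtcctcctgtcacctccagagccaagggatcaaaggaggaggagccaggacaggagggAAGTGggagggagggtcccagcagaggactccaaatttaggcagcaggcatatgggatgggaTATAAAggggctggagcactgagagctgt
Myl4, chr11:104550413-104550692, forward strand: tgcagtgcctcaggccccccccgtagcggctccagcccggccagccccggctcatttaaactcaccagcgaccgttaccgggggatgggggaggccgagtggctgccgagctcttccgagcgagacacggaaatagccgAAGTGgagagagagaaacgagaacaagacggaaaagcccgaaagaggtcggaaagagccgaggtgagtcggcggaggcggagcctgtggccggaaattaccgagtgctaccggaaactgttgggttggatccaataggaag
Myl7, chr11:5898753-5899032, reverse strand: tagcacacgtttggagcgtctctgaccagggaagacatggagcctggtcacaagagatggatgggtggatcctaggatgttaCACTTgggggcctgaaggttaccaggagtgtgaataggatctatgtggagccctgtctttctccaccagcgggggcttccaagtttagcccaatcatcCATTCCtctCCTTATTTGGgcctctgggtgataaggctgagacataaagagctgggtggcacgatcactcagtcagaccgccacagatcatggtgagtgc
Nppa, chr4:148000472-148000751, forward strand: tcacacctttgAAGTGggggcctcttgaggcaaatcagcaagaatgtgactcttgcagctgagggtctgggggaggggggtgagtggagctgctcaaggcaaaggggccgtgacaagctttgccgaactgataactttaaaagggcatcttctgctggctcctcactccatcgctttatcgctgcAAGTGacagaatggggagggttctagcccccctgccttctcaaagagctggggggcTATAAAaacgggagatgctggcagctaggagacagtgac
Actc1, chr2:114052846-114053125, reverse strand: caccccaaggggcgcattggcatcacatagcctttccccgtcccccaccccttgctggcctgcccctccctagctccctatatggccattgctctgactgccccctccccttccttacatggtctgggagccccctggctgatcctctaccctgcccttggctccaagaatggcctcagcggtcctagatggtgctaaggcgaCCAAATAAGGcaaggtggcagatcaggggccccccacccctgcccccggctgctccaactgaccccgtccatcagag
TATAAA stood in the windows of Myh6, at bases 2 to 7 after the annotated start, and Nppa, at -9 to -4, against 13.1% of all 32851 windows. AAGTG stood in 5 members, Myh6, Myl4, Myl7, Nppa and Mybpc3, against 44.4% of all windows. CATTCC was found in Myh6, Myl7 and Tnnt2, against 13.9%, and AGATAA only in Tnnt2 among the members with a window, against 10.7%. The CArG box, read by serum response factor, was found in Actc1 and Myl7 and in 1.56% of all windows, and the MEF2 box in Mybpc3 and in 3.07%. No 2 motifs overlapped in the 5 windows shown. A match describes letters and is not evidence of binding.

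Values are deposited intensities, on a linear scale, after background subtraction, so that they can fall below 0. A probe counted as above background over 16.8. Probes differ in how brightly they bind, so each gene is compared only with itself. Rank correlations between arrays within a group were 0.957 to 0.986. The targeted gene, Cox4i2, had a mean intensity of 283 ± 59.8 (SD, n = 4) in untreated wild type, 137 ± 55.9 (SD, n = 4) in untreated mutants, 248 ± 55.6 (SD, n = 4) in challenged wild type and 144 ± 66.6 (SD, n = 4) in challenged mutants. It was above background on every array, and the array labelled challenged mutant 4, at 243, lay within the wild-type range of 182 to 372. The highest untreated mutant value, 188.5, lay just inside that range too. Where the probe lies relative to the deletion is not known here. Its genotype difference averaged over treatments was -0.79 on the log2 scale (adjusted p = 0.0833 by limma). On 3 challenged arrays the skeletal muscle actin Acta1 exceeded 1000: 14620 and 16800 on challenged wild type 1 and 3, and 7831 on challenged mutant 2. On the other 13 arrays it did not exceed 147.9. It was at most 1.06 in untreated lungs, but 62.7 to 118.1 in the further challenged mutants and -3.07 and 147.9 in the further challenged wild type. On the 3 arrays above 1000 the summed intensity of 16 detected of 19 skeletal muscle markers was 21500 to 55100, against 602 to 900 in untreated lungs and 780 to 1060 in the 5 further challenged lungs. Of 8 squamous epithelium markers 6 were detected, with a sum of 5440 to 9800 on the 3 arrays, against 11.3 to 62.4 in untreated lungs. In the 5 further challenged lungs this sum was 79.8 to 353, above every untreated lung, so leaving out the 3 arrays does not remove all such signal. Of 8 fat cell markers 4 were detected, with a sum of 2760 to 3480 there, against 221 to 515. Comparisons of the members below are therefore given with all 16 arrays and without these 3.

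Myh6, the alpha-myosin heavy chain that is the motor of atrial muscle, had intensities of 798, 755, 409 and 679 in untreated wild type, 307, 561, 441 and 526 in untreated mutants, 475, 252, 503 and 449 in challenged wild type, and 530, 548, 779 and 268 in challenged mutants. All 4 groups overlapped, and the lowest values were challenged wild type 2, challenged mutant 4 and untreated mutant 1. Myl4, the essential light chain of atrial myosin, had intensities of 3518, 4565, 2099 and 3553 in untreated wild type, 1956, 3482, 2334 and 3264 in untreated mutants, 3270, 1322, 3264 and 2024 in challenged wild type, and 2685, 2656, 3868 and 1567 in challenged mutants. Challenged wild type 2 and challenged mutant 4 were lowest again, while untreated wild type alone ran from 2099 to 4565. Myl7, the regulatory light chain of atrial myosin, had intensities of 955, 1168, 421 and 739 in untreated wild type, 414, 707, 461 and 639 in untreated mutants, 562, 292, 786 and 534 in challenged wild type, and 608, 649, 771 and 177 in challenged mutants. Challenged mutant 4 was lowest, at less than the lowest value of any other group, and the groups overlapped. Mybpc3, cardiac myosin-binding protein C, which ties myosin to the thick filament and slows it, was dim, at 36.7, 28.7, 20.2 and 25.8 in untreated wild type, 16.1, 41.6, 20.7 and 30.2 in untreated mutants, 21.2, 25.1, 16.6 and 33.4 in challenged wild type, and 69.1, 29.8, 57.5 and 29.1 in challenged mutants. It was above background on 14 of 16 arrays and highest on challenged mutant 1 and 3. A second Myh6 probe was dim, between -10.5 and 76.6, and correlated with the first at r = 0.883 over 16 arrays.

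In the thin filament, Actc1, cardiac alpha-actin, had intensities of 3118, 3187, 1451 and 2448 in untreated wild type, 2394, 2504, 1380 and 2081 in untreated mutants, 2749, 1455, 2651 and 1249 in challenged wild type, and 1531, 2207, 2414 and 1295 in challenged mutants. Its values fell into high and low arrays within each group, with challenged wild type 2 and 4, challenged mutant 4 and the third array of each untreated group lowest. A second Actc1 probe, at 394 to 1180, correlated with the first at r = 0.907. Tnni3, cardiac troponin I, the inhibitory switch of the thin filament, was dim, at 59.6, 62.5, 28.9 and 46.1 in untreated wild type, 8.58, 49.5, 28.0 and 37.6 in untreated mutants, 43.0, 30.5, 45.2 and 56.2 in challenged wild type, and 81.4, 48.5, 67.9 and 44.4 in challenged mutants. Only untreated mutant 1 was not above background, and 3 of the 4 untreated mutant values lay below every challenged mutant value.

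Among the calcium handling genes, Sln, sarcolipin, a small membrane protein that restrains the calcium pump of atrial and some skeletal muscle, had intensities of 924, 1146, 492 and 809 in untreated wild type, 525, 771, 700 and 832 in untreated mutants, 2266, 247, 2459 and 502 in challenged wild type, and 573, 1281, 984 and 331 in challenged mutants. The 3 arrays with Acta1 above 1000 held its 3 highest values, and challenged wild type 2 and challenged mutant 4 its 2 lowest. Ryr2, the calcium release channel of heart muscle, was not above background on any array, with values between -15.9 and 2.02, so no difference was tested. Nppa, the precursor of atrial natriuretic peptide, had intensities of 624, 1068, 866 and 867 in untreated wild type, 381, 882, 760 and 945 in untreated mutants, 738, 207, 743 and 596 in challenged wild type, and 736, 901, 1394 and 331 in challenged mutants. The hormone gene was highest on challenged mutant 3 and lowest on challenged wild type 2, and its groups overlapped.

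**Figure D1:**
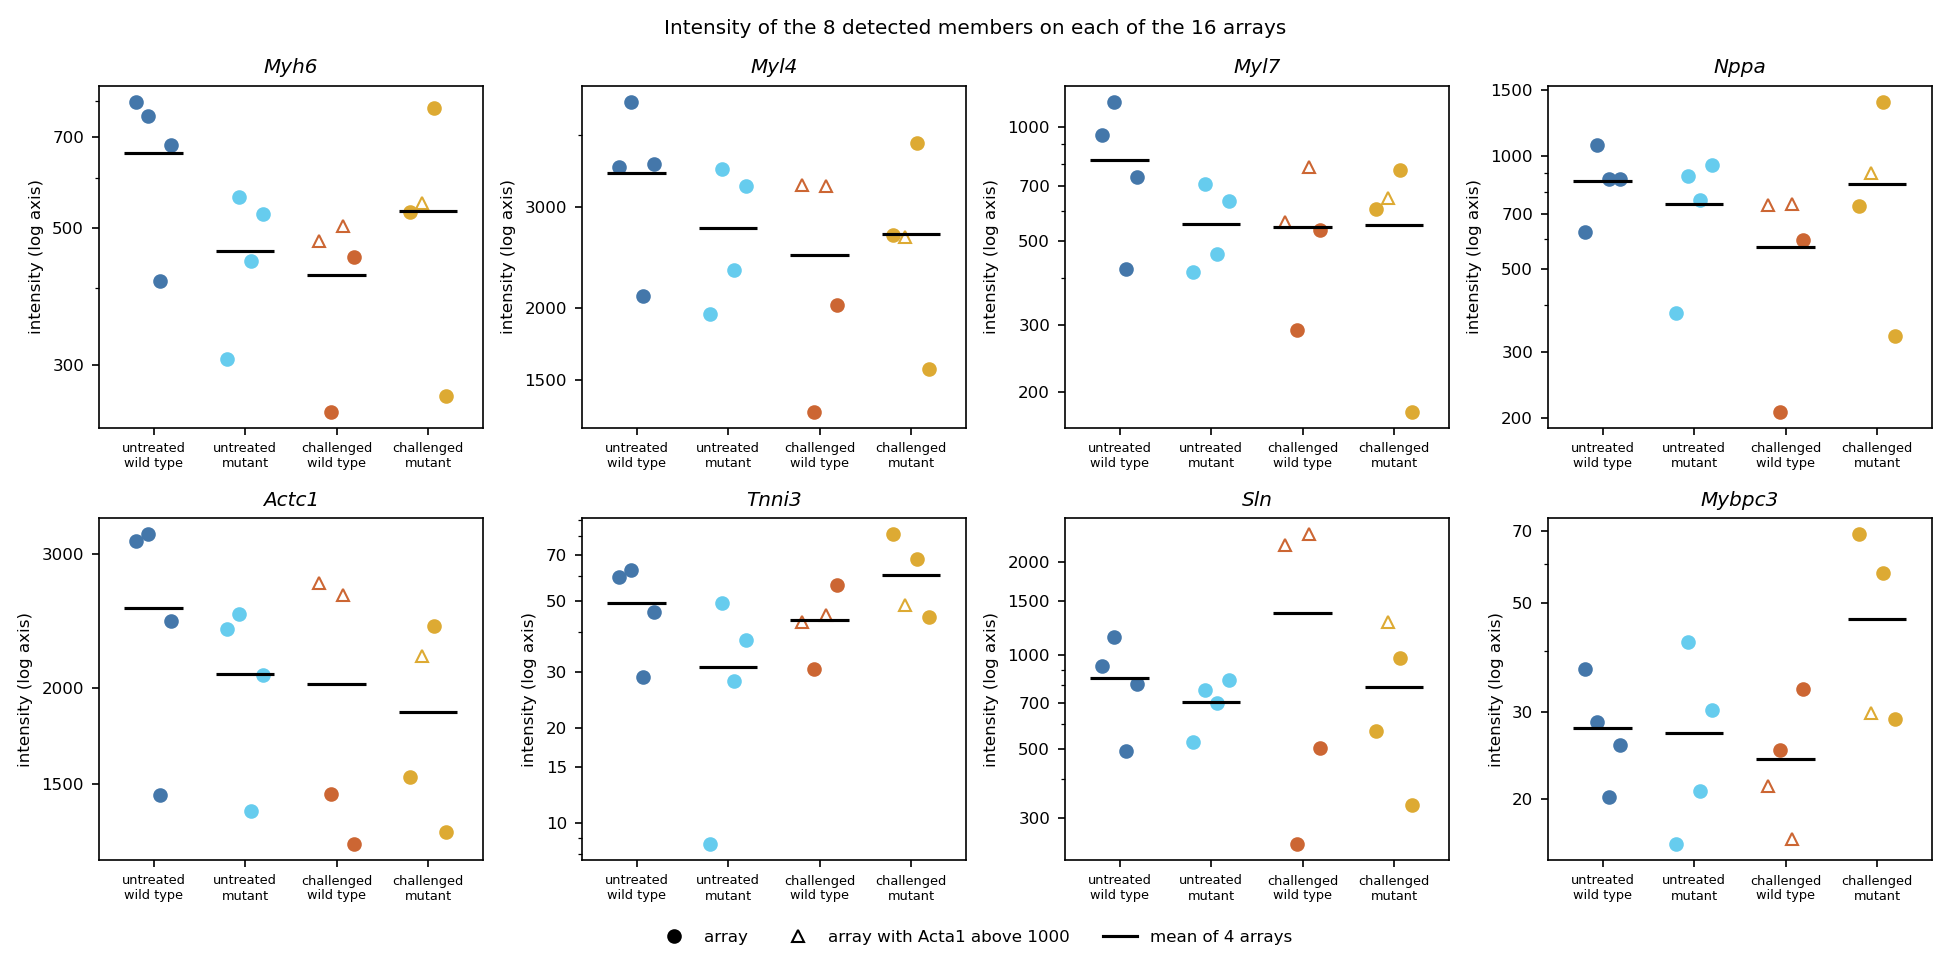
Intensity (log axis) of the 8 detected genes on each of the 16 arrays by group, with open triangles for the 3 arrays with Acta1 above 1000 and bars for the mean of 4 arrays. For the 6 bright genes, Myh6, Myl4, Myl7, Nppa, Actc1 and Sln, untreated lungs already differ by 2.31-fold to 2.82-fold between their highest and lowest array, and Sln is highest on the triangles.

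On the log2 scale used, the members differed far more between mice of 1 group than most genes did. The SD of log2 values within groups was 0.45 for Myh6, 0.51 for Myl4, 0.62 for Myl7, 0.65 for Nppa, 0.48 for Actc1 and 0.92 for Sln, against a median of 0.18 over all genes tested. For these 6 genes, 97.5% to 99.5% of all genes tested had a smaller SD. The dim Tnni3 and Mybpc3 had SDs of 0.27 and 0.23, which understate their spread because the offset added before taking log2 compresses low values. The offset also lowers the SD of other dim genes. The median and percentages above thus do not compare the 6 bright genes with equally bright ones. From the lowest to the highest of 16 arrays the intensity differed 3.17-fold for Myh6, 3.45-fold for Myl4, 6.6-fold for Myl7, 6.72-fold for Nppa, 2.55-fold for Actc1 and 9.97-fold for Sln. Over the 13 arrays without high Acta1 Sln spanned 4.65-fold, so its range over 16 arrays and its SD of 0.92 include the arrays with high Acta1. Untreated lungs alone spanned 2.6-fold for Myh6, 2.82-fold for Myl7 and 2.33-fold for Sln. In such bulk RNA, fewer cardiomyocytes in a piece of lung and less of an RNA per cardiomyocyte cannot be told apart.

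Over the 13 arrays without high Acta1, the members varied together. The 28 pairs of the 8 genes had a median correlation of log2 values of r = 0.723, from 0.102 to 0.968, and every pair among Myh6, Myl4, Myl7 and Sln reached at least 0.904. Against the mean of the other 7 genes, r was 0.979 for Myl4, 0.973 for Myh6, 0.933 for Sln, 0.918 for Myl7, 0.805 for Nppa and 0.667 for Actc1, and 0.549 for Tnni3 and 0.431 for Mybpc3. The arrays share 1 normalisation, and these correlations are a description. After group means were taken out, r was 0.984 for Myl4, 0.977 for Myh6, 0.967 for Myl7 and 0.956 for Sln. It was 0.823 for Tnni3 and 0.812 for Mybpc3, above their values over all 13 arrays, and 0.743 for Nppa and 0.561 for Actc1, below theirs. Variation shared by the members was thus also present within the groups. Sln left the pattern on the 3 arrays with Acta1 above 1000: its log2 level minus that of Myl4 was -1.03 to -0.40 there, -2.12 to -1.68 in untreated lungs and -2.24 to -1.93 in the 5 further challenged lungs. The mean log2 level of the 8 genes relative to untreated wild type was -0.01 to 0.11 on those 3 arrays, within the untreated range of -0.67 to 0.34.

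**Figure D2:**
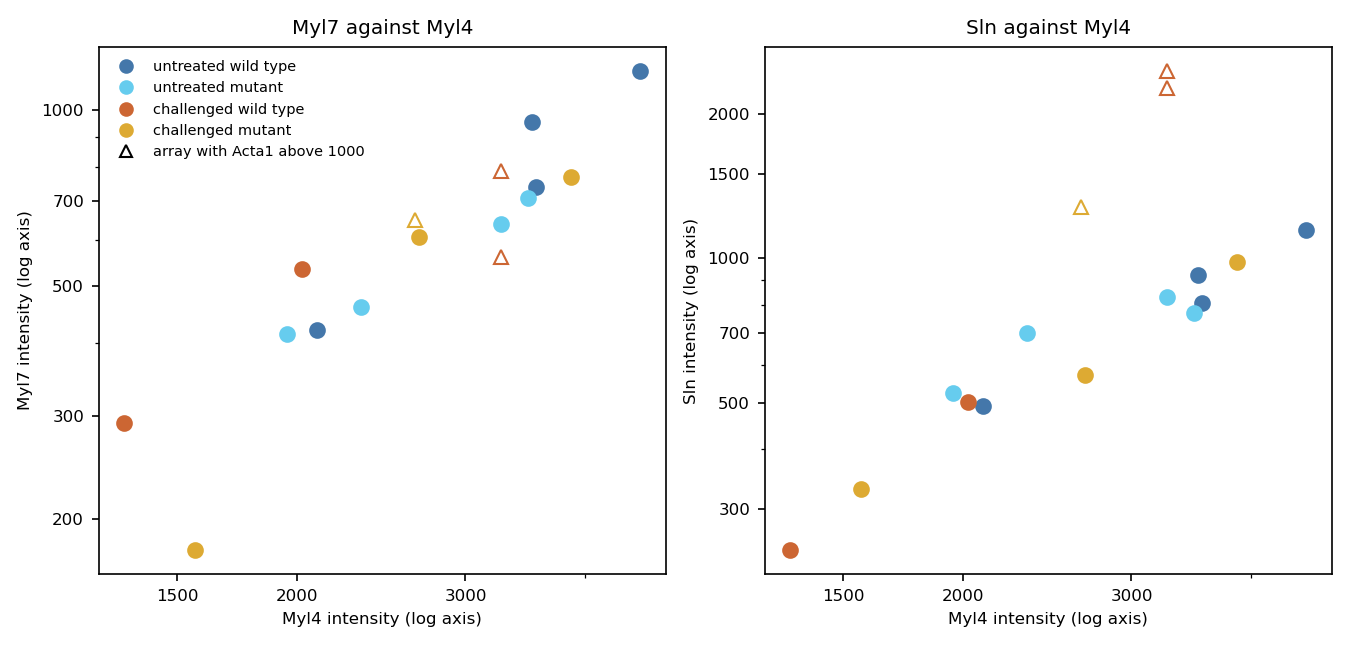
Intensity of Myl7 (left) and Sln (right) against Myl4 on 16 arrays, log axes, coloured by group, with open triangles for arrays with Acta1 above 1000. Myl7 follows Myl4 on nearly all arrays, while Sln lies above the shared line on the 3 triangles.

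The 8 genes whose log2 values correlated most with the mean of the members over the 13 arrays were Ttn (r = 0.972), Csrp3 (0.972), Fabp3 (0.959), Mybphl (0.928), Ckmt2 (0.926), Mb (0.922), Pln (0.921) and Actn2 (0.912). Ttn is titin, the spring of the sarcomere, Actn2 the alpha-actinin of its Z-disc, Mb myoglobin, Fabp3 the fatty acid binding protein of heart, and Pln phospholamban, a further brake on the calcium pump. Over all 16 arrays only Mybphl, a myosin-binding protein of atrial muscle, and Pln kept correlations above 0.9, of 0.912 and 0.924. Mb spanned 379 to 1590 on the 13 arrays and 2960 to 9640 on the 3 with Acta1 above 1000, and Ttn 100 to 301 and 698 to 1470. Mybphl, at 150 to 487 and 337 to 356, and Pln, at 24.3 to 139 and 75.9 to 95.9, stayed within their range there.

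**Figure D3:**
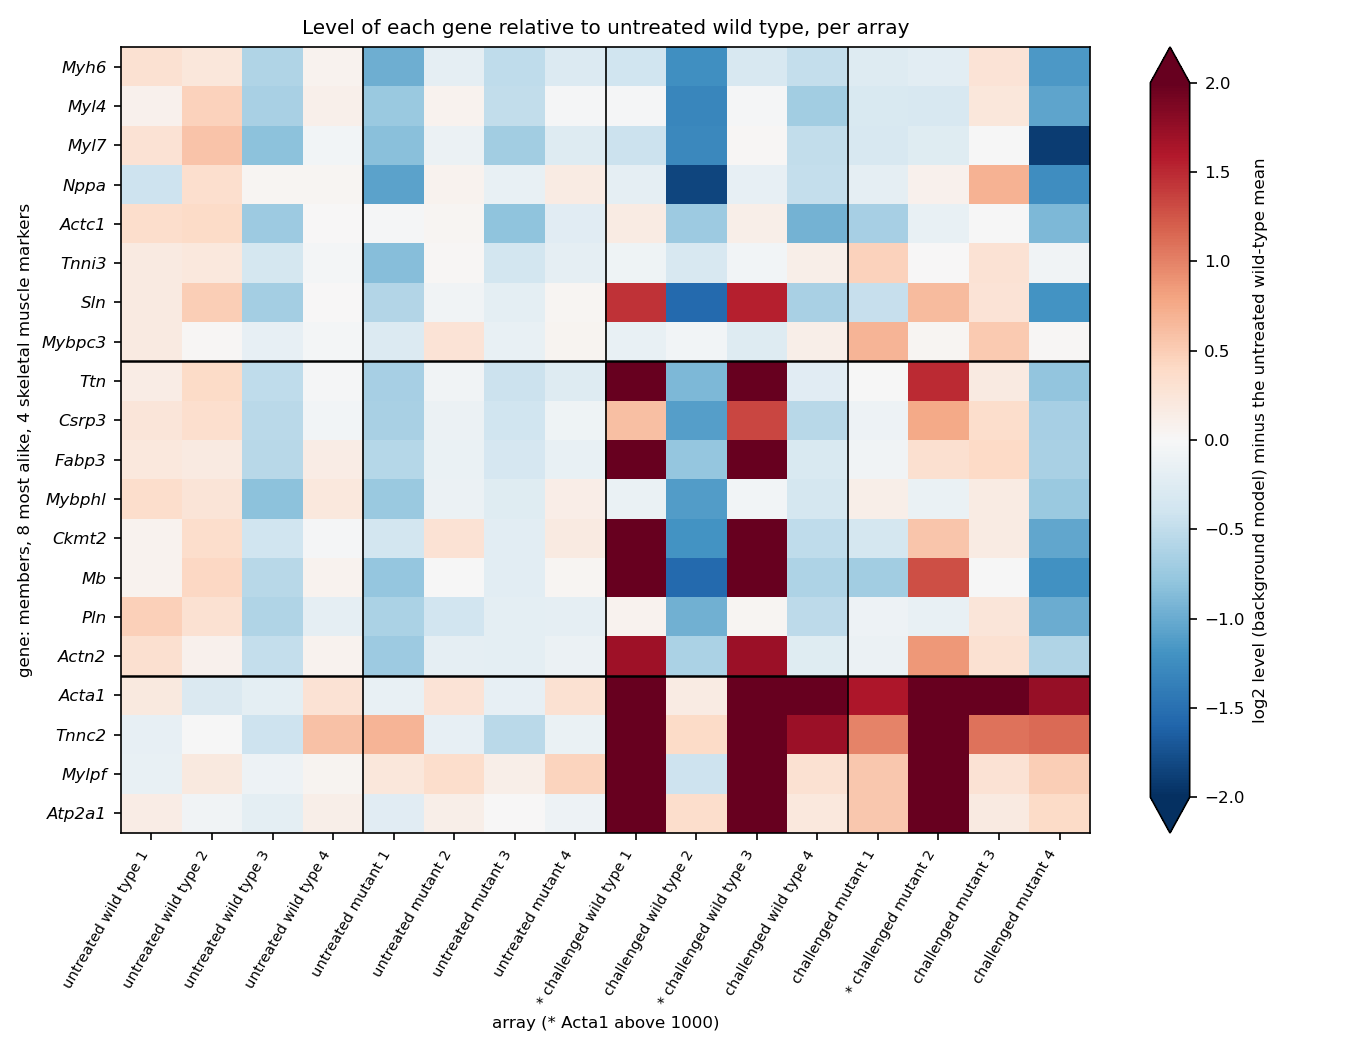
Log2 level of each gene minus its untreated wild-type mean on each array, for the 8 detected members, the 8 genes most like them and 4 skeletal muscle markers; colours stop at 2 in either direction and stars mark arrays with Acta1 above 1000. Challenged wild type 2 and challenged mutant 4 are blue across Myh6, Myl4, Myl7, Nppa and Sln, and on starred arrays Ttn, Mb and Ckmt2 are red while Myh6 and Myl4 are not.

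Markers of the ventricle were checked against the atrial label. Myl2, the ventricular regulatory light chain, did not exceed 12.9 on any of the 13 arrays without high Acta1, and was 129 to 1390 on the 3 with it. Myl2 is also a gene of slow skeletal muscle, as is Myl3, which was 1800 to 3150 on those arrays and 70.3 to 192 in untreated lungs. Irx4 and Nppb, the ventricular transcription factor and the second cardiac natriuretic peptide, were not above background on any untreated array. The other 4 of the 7 genes on the ventricle list, Hey2, Mybphl, Myl3 and Myh7, were above background on all 8 untreated arrays, at 24 to 40.4, 194 to 487, 70.3 to 192 and 26.8 to 53.8. A second Hey2 probe, not tested, was above background on 0 of 4 untreated wild-type arrays (mean 2.32) and 2 of 4 untreated mutant arrays (mean 17.0). Mybphl stands on that list although, as given above, it is a myosin-binding protein of atrial muscle, so its signal does not mark ventricle. Bmp10, a hormone of the atrium, was not above background on any array, as Ryr2 was not. The values thus show heart muscle RNA and do not separate atrial from ventricular muscle by the full lists. Of 13 cardiac transcription factors 7 were detected, and Hand1, Hand2, Shox2 and Tbx18 were not above background on any untreated array.

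In wild type, challenge left no member past the threshold. With all 16 arrays 0 of 8 members had an adjusted p under 0.05 by limma, where 17.6% of all genes did. At an unadjusted p under 0.05 there was 1 member, against 32.4% of all genes: Myh6, with a log2 difference of -0.61 (SE 0.28), an adjusted p of 0.139 and an exact permutation p of 0.114. Differences lay below 0 for 7 of 8 members, against 51% of all genes, with a median of -0.43, against -0.006 for all genes. These 7 members vary together and are not independent. The difference was -0.51 for Myl4 (95% interval -1.16 to 0.15), -0.55 for Myl7 (-1.34 to 0.25), -0.66 for Nppa (-1.5 to 0.17) and -0.35 for Actc1 (-0.97 to 0.27), all with adjusted p of 0.259 or more by limma. Sln was at 0.20, with an interval of -0.97 to 1.37 that spans both directions.

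Without the 3 arrays, 2 challenged wild-type lungs remained. Sln was then lower, by limma, with a log2 difference of -1.10 (SE 0.37, adjusted p = 0.0488), the 1 of 8 members past the threshold, where 20% of all genes passed. Its group means were 843 ± 273 (SD, n = 4) untreated and 375 ± 181 (SD, n = 2) challenged. The values of 247 and 502 against 492 to 1146 overlapped, and the exact permutation p was 0.267, where the smallest p possible for 4 against 2 is 0.133. Myl4 was at -0.998 (adjusted p = 0.0548), Nppa at -1.15 (adjusted p = 0.1001), Myh6 at -0.85 (adjusted p = 0.103) and Actc1 at -0.84 (adjusted p = 0.0721). Myl7 was at -0.89 and did not reach an unadjusted p under 0.05 by limma. At an unadjusted p under 0.05 there were 5 members lower, against 16.3% of all genes. These too vary together and are not independent. The groups did not overlap for 2 members, Myl4 and Nppa, where they did not for 41.7% of all genes. The median over the 8 members was -0.87, against 0.002 for all genes. Tnni3 (-0.10) and Mybpc3 (0.03) lay close to 0. Leaving out the arrays turned the sign of Sln, since the 2 challenged wild-type arrays with Acta1 above 1000 held its highest values.

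In the mutant, the bright members did not move in a common direction. With all 16 arrays 1 of 8 members passed, where 23.8% of all genes passed: Tnni3 was higher in challenged mutants, at 60.6 ± 17.3 (SD, n = 4) against 30.9 ± 17.3 (SD, n = 4). The log2 difference was 0.52 (SE 0.18, adjusted p = 0.0417 by limma). The groups overlapped and the exact permutation p was 0.0857, so the call rests on the spread shared over all groups and genes. It was lost without the 3 arrays (log2 difference 0.57, adjusted p = 0.0568 by limma), where 0 of 8 members and 21.1% of all genes passed and 2 members, Tnni3 and Mybpc3, had an unadjusted p under 0.05, as 35.8% of all genes did. It was also lost when any 1 of untreated mutant 1, 3 or 4 or challenged mutant 1 or 3 was left out, with adjusted p of 0.136, 0.0782, 0.052, 0.125 and 0.0856 by limma. Mybpc3, the other dim member, was at 0.35 (adjusted p = 0.107), and these 2 members had an unadjusted p under 0.05 with all 16 arrays, as 37.6% of all genes did. Myh6 was at 0.14 (95% interval -0.44 to 0.73), Myl4 at -0.06 (-0.72 to 0.59), Myl7 at -0.14 (-0.93 to 0.65), Nppa at 0.09 (-0.75 to 0.92), Actc1 at -0.17 (-0.79 to 0.45) and Sln at 0.01 (-1.16 to 1.18). The intervals of Myl7, Nppa and Sln reach well to both sides of 0, so changes of moderate size were not detectable. The median of the members was 0.05, against 0.01 for all genes.

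**Figure D4:**
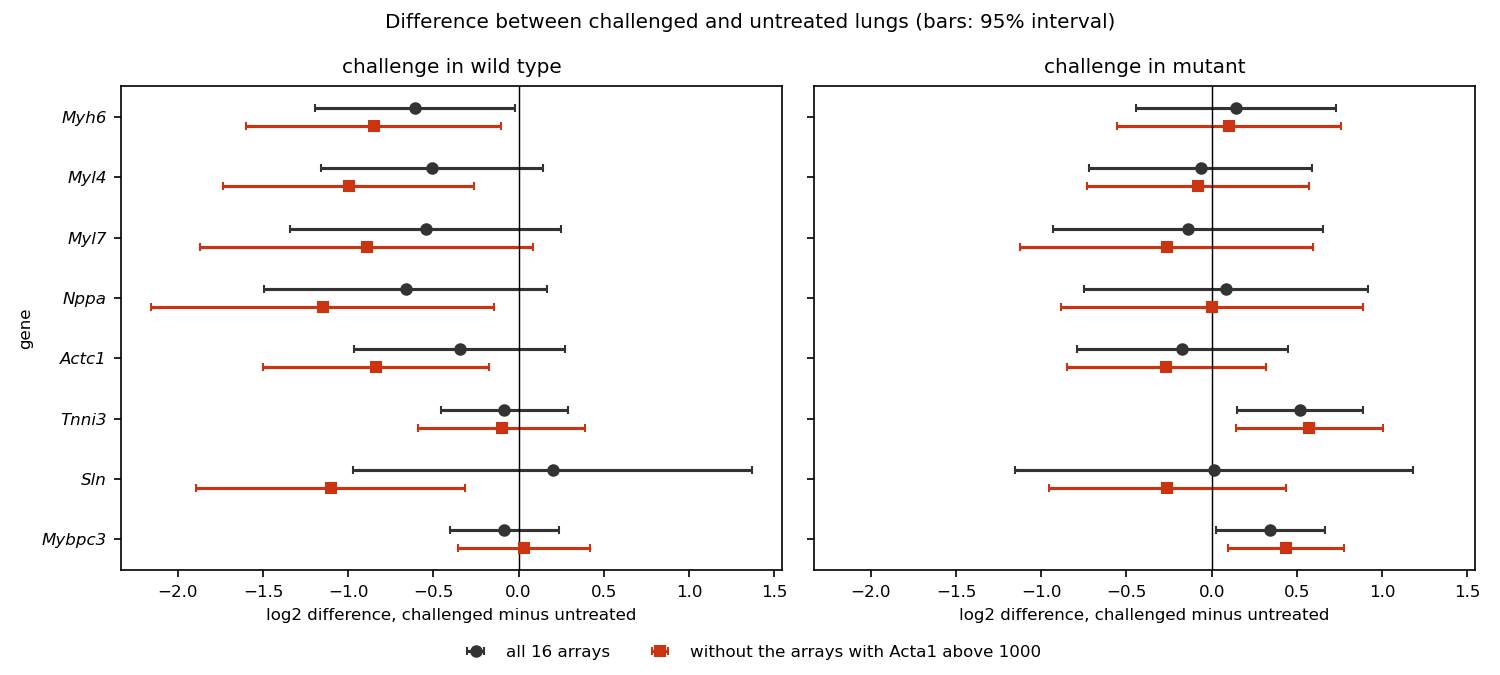
Log2 difference, challenged minus untreated, of each detected member in wild type (left) and mutant (right) with 95% intervals, for all 16 arrays (circles) and without the 3 arrays with Acta1 above 1000 (squares). In wild type the squares of Myh6, Myl4, Myl7, Nppa, Actc1 and Sln lie between -0.84 and -1.15, and in the mutant Tnni3 and Mybpc3 are the members whose intervals lie above 0.

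Averaged over genotypes, 0 of 8 members passed with all 16 arrays and 0 had an unadjusted p under 0.05 by limma, where 36.7% of all genes passed the adjusted threshold and 46.3% the unadjusted one. Without the 3 arrays 2 of 8 passed, where 36.6% of all genes passed: Actc1 was lower by a log2 difference of -0.55 (SE 0.21, adjusted p = 0.0492) and Sln by -0.68 (SE 0.25, adjusted p = 0.0422). A share of 2 in 8 is below that background.

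By limma, no member was called different between the mutant line and wild type. The intervals below are wide, so a lack of calls does not show equal levels. In untreated lungs 0 of 8 members passed, where 0% of all genes passed, and 0 had an unadjusted p under 0.05, against 12.2% of all genes. All 8 differences lay below 0, against 49.8% of all genes, from -0.02 for Mybpc3 to -0.48 for Myh6 (95% interval -1.07 to 0.10) and Myl7 (-1.27 to 0.32), and every member's groups overlapped, where those of 7.1% of all genes did not. The members vary together, so these 8 signs are not independent. In challenged lungs 0 of 8 passed, where 0.0167% of all genes passed, and Mybpc3 had the only unadjusted p under 0.05 (12.2% of all genes), with a log2 difference of 0.40 (SE 0.15, adjusted p = 0.304, exact permutation p = 0.0857). Averaged over treatments 0 of 8 passed, where 0.0251% of all genes passed, with 0 at an unadjusted p under 0.05 (12.2% of all genes). Whether the 2 genotypes differed in their response to challenge was tested as the interaction: 0 of 8 members passed, where 0% of all genes passed. Tnni3 had the only unadjusted p under 0.05 there (0.0272), as 12% of all genes had, with a log2 difference of 0.60 (SE 0.25) and an adjusted p of 0.358. For Myh6 the interaction was 0.75 (95% interval -0.08 to 1.58, adjusted p = 0.472) and for Nppa 0.75 (-0.43 to 1.93, adjusted p = 0.627). Without the 3 arrays 0 of 8 members passed in untreated lungs, in challenged lungs, on average or in the interaction, where 0%, 0.719%, 0.217% and 0.284% of all genes passed. A difference between the wild-type and mutant responses was thus not shown for any member. Without challenged mutant 4, an array whose Cox4i2 lay in the wild-type range, 0 of 8 members passed in each genotype comparison too. The same held when any other 1 array was left out, among them the untreated mutant array with Cox4i2 at 188.5.

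Other genes of heart muscle were read from lists chosen with earlier results of these data known. Among 14 detected of 22 further sarcomere genes, 0 passed in either direction for challenge averaged over genotypes by limma, where 36.7% of all genes passed. Myl3 (1.57, adjusted p = 0.0719) and Ankrd1 (0.28, adjusted p = 0.134) had the smallest p. Without the 3 arrays 1 of 14 was lower, where 36.6% of all genes passed in either direction. It was Tcap, the titin cap, named after its values were seen, at -0.77 (adjusted p = 0.00961). In wild type without the 3 arrays 2 of 14 were lower, where 20% of all genes passed in either direction: Tcap at -1.13 (adjusted p = 0.0209) and Csrp3, the muscle LIM protein, at -0.83 (adjusted p = 0.0483). Among 12 detected calcium handling genes, 1 rose and 1 fell on average, against 36.7% of all genes in either direction: Trdn, triadin, by 0.25 (adjusted p = 0.0426) and Asph, whose gene also makes junctin, by -0.27 (adjusted p = 0.00199). When the 3 arrays were left out, Trdn no longer passed (0.29, adjusted p = 0.0506) and Asph did (-0.29, adjusted p = 0.00473). Both are scaffolds of the calcium release site, and Asph is also used widely outside muscle.

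Of 13 channel and coupling genes 9 were detected, and 3 rose on average, a share near the 36.7% of all genes that passed: Gja1 by 0.62 (adjusted p = 0.000148), Gja5 by 0.73 (adjusted p = 0.00269) and Kcne1 by 0.20 (adjusted p = 0.0297). Gja1 and Gja5 are connexins of atrial muscle and also of blood vessel walls. When the 3 arrays were left out, 2 were higher and 1 lower, against 36.6% of all genes in either direction. Of 7 detected transcription factors 1 rose, Smyd1 by 0.30 (adjusted p = 0.0249), and 1 fell, Tbx3 by -0.36 (adjusted p = 0.0344), against 36.7% of all genes in either direction. Of these 7, 0 passed without the 3 arrays, against 36.6% of all genes.

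Around the hormone, 4 of 7 genes of natriuretic peptide signalling were detected, and 1 rose and 3 fell on average (36.7% of all genes passed), while Nppa itself was at -0.29 (adjusted p = 0.443). Npr3, the clearance receptor that removes the peptide, fell by -1.47 (adjusted p = 1.14e-06 by limma), from 472 to 946 on untreated arrays to 161 to 344 on challenged arrays. It fell in wild type (-1.68) and in the mutant (-1.27), and challenged and untreated arrays did not overlap. Npr2, the receptor of C-type natriuretic peptide, fell by -0.33 (adjusted p = 0.0019) and Furin by -0.18 (adjusted p = 0.0174). When the 3 arrays were left out, 1 was higher and 2 were lower, against 36.6% of all genes in either direction. Furin, at -0.13, no longer passed (adjusted p = 0.109). A second, dimmer Furin probe was not tested. It was 95.9 to 140.2 in untreated wild type and 98.7 to 124.6 in untreated mutants. In challenged wild type it was 54.0 to 75.6 and in challenged mutants 67.8 to 89.4, below every untreated array. Another Furin probe was not above background. Corin, the protease that cuts pro-atrial natriuretic peptide into its active form, rose by 0.93 on average (adjusted p = 0.0205), with 1.78 in wild type (adjusted p = 0.00811) and 0.08 in the mutant (adjusted p = 0.912). The interaction for Corin was -1.70, with an adjusted p of 0.281 by limma, so a difference between genotypes was not shown. Of 13 detected energy genes, 2 rose and 1 fell on average, against 36.7% of all genes in either direction: Cpt1b rose by 0.67 (adjusted p = 0.0259), Pgam2 by 1.05 (adjusted p = 0.0308), and Pdk4, a kinase that holds back glucose oxidation, fell by -1.58 (adjusted p = 0.00219). When the 3 arrays were left out, 0 rose and 3 fell, against 36.6% of all genes.

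**Figure D5:**
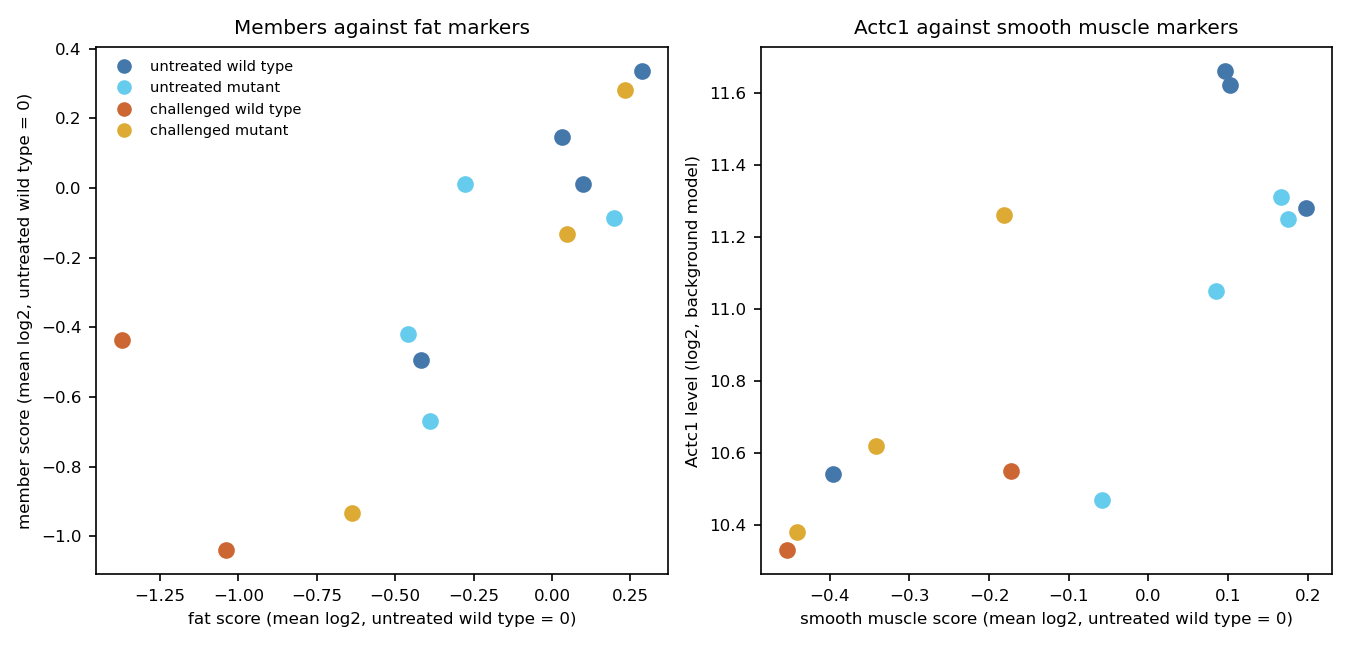
Left, mean log2 level of the 8 members against that of 4 detected fat cell markers, and right, log2 level of Actc1 against the mean of 11 smooth muscle markers, on the 13 arrays without high Acta1, coloured by group; scores are relative to untreated wild type. Arrays low in members are low in fat markers (r = 0.777), and Actc1 follows the smooth muscle score (r = 0.812).

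Markers of fat, skeletal muscle and smooth muscle were set beside the members. Over the 13 arrays the mean log2 level of the members correlated with that of the fat cell markers at Pearson r = 0.777 and Spearman rho = 0.824, at r = 0.888 without the 2 arrays farthest from the median fat score, and at r = 0.731 after group means were taken out. The 4 detected fat genes summed to 221 to 515 in untreated lungs, 37.1 to 479 in the 5 further challenged lungs, and 2760 to 3480 on the arrays with high Acta1, and Fabp4, Plin1 and Retn were not above background on any untreated array. Without the 3 arrays Adipoq, the adipocyte hormone, was at -1.75 for challenge in wild type (adjusted p = 0.000854), beside the -1.10 of Sln, and at 0.19 in the mutant (adjusted p = 0.605). In the same wild-type comparison Cidec was at -1.75 (adjusted p = 0.00291) and Car3 at -1.57 (adjusted p = 0.0159), while Lep was at 0.24 (adjusted p = 0.096). Against the skeletal muscle score the members' r was 0.02, and 0.625 after group means were taken out. Against the smooth muscle score it was 0.459, and 0.446 after group means were taken out. Only Actc1 of the members was also set alone against the smooth muscle score, a choice made after the data were seen. Its p-values are thus a description and do not measure chance. Actc1 correlated with the mean of 11 detected of 12 smooth muscle markers at Pearson r = 0.812 (permutation p = 0.002, adjusted p = 0.0034 over 12 relations) and Spearman rho = 0.769 (permutation p = 0.0034, adjusted p = 0.0056). It remained at r = 0.72 without the 2 farthest arrays and at 0.86 after group means were taken out. These smooth muscle genes summed to 14600 to 24400 in untreated lungs and 13200 to 17600 in those 5 challenged lungs, and 3 of 11 fell and 0 rose on average, against 36.7% of all genes in either direction, with Myh11, smooth muscle myosin, at -0.90 (adjusted p = 0.00972). When the 3 arrays were left out, 6 of 11 fell and 0 rose, against 36.6% of all genes, with Myh11 at -1.34 (adjusted p = 0.000259). The part of fat, smooth muscle or skeletal muscle tissue in the members' values was not tested.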

How the data were processed

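Lung RNA of 16 mice was hybridised to 16 single-colour bead arrays. The deposited table holds 1 intensity per probe and array for 25697 probes. GenomeStudio 2011.1 is named, without its role, per the submitters' processing notes, and the negative values and shared quartiles show that the authors subtracted a background and normalised between arrays before depositing these intensities. A further 32 value columns of a second table matched no sample label and were not used. Gene names came from the platform annotation: 23978 probes had 1 symbol, 1719 had none and 0 had several. Array medians were 27.8 to 28, and no further normalisation was applied.

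Of all values, 23.5% to 23.8% per array lay below 0, so a normal-plus-exponential background model with an offset of 16 was applied before taking log2. As fitted, it adds 40.7 to 40.9 to intensities over 100, which compresses the folds of dim genes. The background limit of 16.8 is the 95th percentile of noise mirrored from the negative values. Probes above it on at least 4 arrays were kept (15869), and for each gene the brightest was tested (11962 in all). R 4.3.3 with limma 3.58.1 fitted the 4 group means jointly, with Benjamini-Hochberg adjustment over all genes and 12 residual degrees of freedom. Exact permutation tests were two-sided, with a smallest p of 0.0286 for 4 against 4. Precision is limited by the number of arrays. The calculation was tested on simulated data.

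The members, gene lists and tests were chosen with earlier results of these data known. Named were all members, Cox4i2, Acta1, up to 4 genes per list with the smallest p for challenge averaged over genotypes, and the 8 genes most like the members. Tcap, Csrp3 as a list member, and the marker genes not above background were named after their values were seen. Correlations with other-tissue scores were chosen after seeing the data. Replicates are separate mice. Same-numbered arrays were not paired: over 24 pairs their deviations correlated at -0.496 to 0.262, with 3 over 0.1. Alternatives covered the offset, the background treatment, the filter, the choice of probe, the samples fitted, a skeletal muscle covariate, the replicate block and leaving out arrays.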

Additional observations from a re-analysis of the deposited data

Results flagged for a closer look

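Of 32 groups of 4 arrays, 1 for each detected member and group, 2 held an array far from the other 3 by Dixon's ratio, where chance gives about 1 in 20. Myh6 on challenged wild type 2 had an intensity of 251.9, against 449 to 503 on the other 3 arrays of its group. Myl7 on challenged mutant 4 had an intensity of 176.8, against 608 to 771 on the other 3. Both arrays were also the lowest of their groups for Myl4, Nppa and Sln.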

How the results depend on the processing

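The number of members past the threshold for challenge in wild type was 0 with all arrays, 1 without the 3 arrays with Acta1 above 1000 (Sln) and 2 with the skeletal muscle score as a covariate (Actc1 and Sln). For challenge in the mutant it was 1 (Tnni3), and 0 with no filter on dim probes, without the 3 arrays, with only the groups compared in the fit, or with the replicate block, and 2 with the covariate (Tnni3 and Mybpc3). Leaving out 1 array at a time gave 0 to 1 there. Averaged over genotypes it was 0, and 2 without the 3 arrays and 3 with the covariate (Myl4, Actc1 and Sln). The cause was not tested. Of 11962 genes or unnamed probes, 2063, 3345 and 4174 passed with the covariate in wild type, in the mutant and on average. Without the 3 arrays 2391, 2525 and 4383 passed, and 2108, 2843 and 4395 with all arrays and no covariate. Over the 27 other settings Tnni3 in the mutant had log2 differences of 0.35 to 0.942 and adjusted p of 0.0224 to 0.136 by limma, and 18 passed.

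Signs turned without the 3 arrays, and with the covariate, as follows. Sln became -1.10 and -1.15 in wild type, -0.26 and -0.61 in the mutant and -0.68 and -0.88 on average for challenge, 0.64 and 0.35 for genotype in challenged lungs, 0.22 and 0.0764 for genotype on average, and 0.84 and 0.54 for the interaction. Mybpc3 became 0.0321 and 0.082 for challenge in wild type. Myl7 became 0.15 and 0.17, and Actc1 0.31 and 0.195, for genotype in challenged lungs. For genotype on average Myl4 became 0.16 and 0.0478, and Actc1 0.0294 without the 3 arrays. Nppa became -0.145 for challenge in the mutant with the covariate.

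Leaving out 1 array at a time turned the sign of members that passed no test. For challenge the ranges were -0.254 to 0.786 (Sln, wild type), -0.0574 to 0.413 (Myh6, mutant), -0.2 to 0.449 (Nppa, mutant), -0.262 to 0.349 (Sln, mutant), -0.259 to 0.168 (Myl4, mutant), -0.343 to 0.29 (Myl7, mutant) and -0.12 to 0.4 (Sln, average). For genotype they were -0.121 to 0.0567 (Mybpc3) and -0.381 to 0.0277 (Nppa) untreated, -0.28 to 0.091 (Actc1), -0.973 to 0.067 (Sln), -0.117 to 0.379 (Myl4) and -0.315 to 0.36 (Myl7) challenged, and -0.207 to 0.0405 (Myl4), -0.107 to 0.0383 (Tnni3), -0.065 to 0.311 (Nppa) and -0.207 to 0.0297 (Myh6) on average. For the interaction they were -0.772 to 0.268 (Sln) and -0.0248 to 0.419 (Actc1).

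Of all results computed, 561 kept direction and side of the threshold under other settings, while 22 turned sign. With the sign kept, 5 came to pass the threshold and 4 ceased to. Under leaving out an array 846 kept both, 45 turned sign, 0 came to pass and 5 ceased to. The members vary together and only Tnni3 in the mutant passed with all arrays, so staying on the same side says little. Over all genes, calls went from 2108 to 1220 for challenge in wild type with only the groups compared, from 2 to 86 for genotype in challenged lungs without the 3 arrays, from 3 to 26 for genotype on average without them, to 15 with the covariate and to 11 with an offset of 50, and from 0 to 34 for the interaction without them and 1 with the covariate. The replicate block gave 2775 calls against 2843 for challenge in the mutant, and the numbers pair no samples. Dim signal limits Tnni3 and Mybpc3, and 2 remaining lungs limit challenged wild type.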
